A study of Homo sapiens with 24 samples.

Results

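MYC and 41 factors of ribosome biogenesis were followed in HEK293T cells, a human embryonic kidney line, across 3 genotypes and 2 oxygen levels. The members are the rows that carry 1 of 42 gene symbols in both count tables. The rule uses no measured value, but the symbols were picked with earlier results of these data known. They are 42 of 58735 genes, each matched once, and all 42 passed the filter on low counts that left 19952 genes for testing. The genotypes were unedited cells (WT), MIR210-KO, in which the gene of the microRNA miR-210 is the stated target, and MIR210HG-KO, in which the target is the gene of the long RNA that hosts miR-210. Cells were kept for 24 h at 21% oxygen (normoxia) or 1% oxygen (hypoxia) in high-glucose DMEM with 10% serum, and each of the 6 groups held 4 RNA-seq libraries, 24 in all. All groups share the HEK293T background, in which viral T antigen is made. Nothing in the labels tells if a knockout is 1 clone or a pool, or if libraries come from separate cultures, so p values measure only the spread between libraries, which may be technical.

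MYC is a transcription factor that binds DNA together with MAX at E-boxes, and genes for making ribosomes are among its best known targets. Ribosome biogenesis starts in the nucleolus, where RNA polymerase I copies the ribosomal DNA into a long precursor. Small nucleolar ribonucleoproteins (snoRNPs) modify that precursor, and large assemblies of processing factors cut and fold it into the small and the large subunit. The work is costly in energy and is known to be lowered when cells lack oxygen or nutrients.

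Library totals ran from 25556776 to 37858947 counts. MIR210HG was at 0 in all 8 MIR210HG-KO libraries and between 4.83 and 21 CPM (counts over the library's scaled total) in the 8 WT libraries. No small RNA library was analysed here, so MIR210-KO has no such check. MIR210HG itself stood at 2.1 to 4.71 CPM in normoxia MIR210-KO, below every normoxia WT library (4.83 to 6.34). By edgeR's quasi-likelihood test the log2 fold change was -0.71 (adjusted p = 0.00044). In hypoxia it was 0.12 (adjusted p = 0.406), at 18.9 to 22.2 CPM against 16.8 to 21 in WT. Its oxygen response differed from that of WT by 0.83 (adjusted p = 0.00208). Of 8 genes that mark this line, all were present in every library, from PAX2 at 1.64 to 6.94 CPM to VIM at 159 to 449 CPM. Presence does not mean equal levels between genotypes. In normoxia KRT8 stood at 19.6 to 21.4 CPM in WT, 96 to 108 in MIR210-KO and 26.1 to 29.2 in MIR210HG-KO. NEFM stood at 113 to 131, 212 to 225 and 34.2 to 43.8 CPM in the same order, whereas KRT18 overlapped between normoxia WT and MIR210HG-KO. Of 8 markers of blood, endothelium, fibroblasts and liver, 7 stayed at or below 0.619 CPM in every library, and ALB, of liver, reached 3.67 CPM. ALB split by oxygen level and so by count table. It lay between 1.92 and 3.67 CPM in the normoxia libraries, except normoxia MIR210HG-KO 3 at 0.0373. In all 12 hypoxia libraries it was at or below 0.242 CPM. The reason for this split was not tested. Hypoxia WT 1 and 3 stood apart from hypoxia WT 2 and 4: the summed level of long relative to short genes, centred over all libraries, was 0.10 and 0.01 on the log2 scale against 0.52 and 0.51. An earlier analysis of these data also set hypoxia MIR210-KO 1 and normoxia MIR210HG-KO 3 apart. Chi-square per gene against their group was 11.5 to 22.4 and 20.5 to 36.0, and 5.00 to 10.2 and 2.48 to 5.46 between the other libraries. By the balance, normoxia MIR210HG-KO 3 was at -0.34, beside -0.29, -0.27 and -0.21. Normoxia MIR210-KO 3, at -0.55 beside -0.40 to -0.32, was kept. The 4 were thus picked from these same data. Counts of members called in comparisons that use any of these 4 libraries are given with and without them. The same balance of long and short genes was above 0 in all 12 hypoxia libraries and below 0 in all 12 normoxia libraries, and its part in the oxygen responses was not tested beyond a fit with that balance as a covariate.

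Per length, the members ranged widely. Averaged over 24 libraries and given as RPKM (CPM divided by the gene's deposited length in kilobases), the highest were NPM1 at 562, NCL at 236 and FBL at 167. NPM1 (nucleophosmin) and NCL (nucleolin) are abundant nucleolar proteins with many roles, and FBL (fibrillarin) is the RNA methyltransferase of the box C/D snoRNPs. MYC itself stood at 80.7 RPKM. The lowest were POLR1C at 7.44, PPAN at 3.96 and NOP2 at 0.378 RPKM. The values of NOP2, an RNA methyltransferase, and PPAN, a large subunit factor, need care, because a read that falls on exons of more than 1 gene may be left uncounted. In the GENCODE 29 annotation, 54.4% of the exon bases of NOP2 are also exon of AC006064.6 on the same strand, and 59.8% of those of PPAN are shared with P2RY11 and PPAN-P2RY11. Some exon bases of 23 members overlap another gene, and for 15 that gene lies on the opposite strand, most for HEATR1 (23.2%), TSR1 (20.8%) and NIP7 (20.2%). The strand setting of the counting is not given, so such counts are uncertain. NPM1 has 45 annotated pseudogenes by name, which can share its reads.

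Many of these genes carry an E-box at their start. RefSeq promoter windows (GRCh38.p14, 250 bases before to 50 after an annotated start) were on hand for 34 of the 42 members, not for MYC, POLR1E, NOP58, NOLC1, RRP12, BOP1, RRS1 and RRP1B. The letters CACGTG, which read the same on both strands, were found for 16 of the 34 members (47.1%), against 8.77% of all 27305 genes in the table and 10.9% of 15842 protein-coding genes. In 15 of the 16 a copy lay between -35 and 35 bases of the start, with UTP14A the exception. That span ends at the outermost of these sites, that of NOP2 at 35, and the share of all genes with a copy in it was not computed. The related letters CACGCG, on either strand, were found for 13 members (38.2%) against 18.1% of protein-coding genes, and 24 members held either. A match of letters does not show binding, and binding was not measured. Shown 5′ to 3′ on the gene's strand, with the E-box in capitals, are 30 bases around the site in 8 members whose levels are described further on.
WDR43: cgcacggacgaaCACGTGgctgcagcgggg
UTP4: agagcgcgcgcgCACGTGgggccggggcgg
NOL6: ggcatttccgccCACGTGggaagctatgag
RRP9: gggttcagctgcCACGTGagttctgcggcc
UTP20: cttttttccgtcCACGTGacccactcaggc
NAT10: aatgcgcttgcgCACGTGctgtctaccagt
GNL3: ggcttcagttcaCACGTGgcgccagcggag
DDX21: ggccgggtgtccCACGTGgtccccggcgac
In GRCh38.p14 these lie at chr2:28894658-28894687 (+ strand) for WDR43, chr16:69132621-69132650 (+ strand) for UTP4, chr9:33473894-33473923 (- strand) for NOL6, chr3:51941892-51941921 (- strand) for RRP9, chr12:101280083-101280112 (+ strand) for UTP20, chr11:34105602-34105631 (+ strand) for NAT10, chr3:52686026-52686055 (+ strand) for GNL3 and chr10:68956604-68956633 (+ strand) for DDX21. The E-box starts 3 bases from the annotated start in WDR43, 6 in GNL3 and 13 in NOL6, and upstream at -5 in RRP9, -10 in UTP20, -15 in NAT10, -16 in UTP4 and -31 in DDX21. The bases around the core differ between the 8 members.

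**Figure D1:**
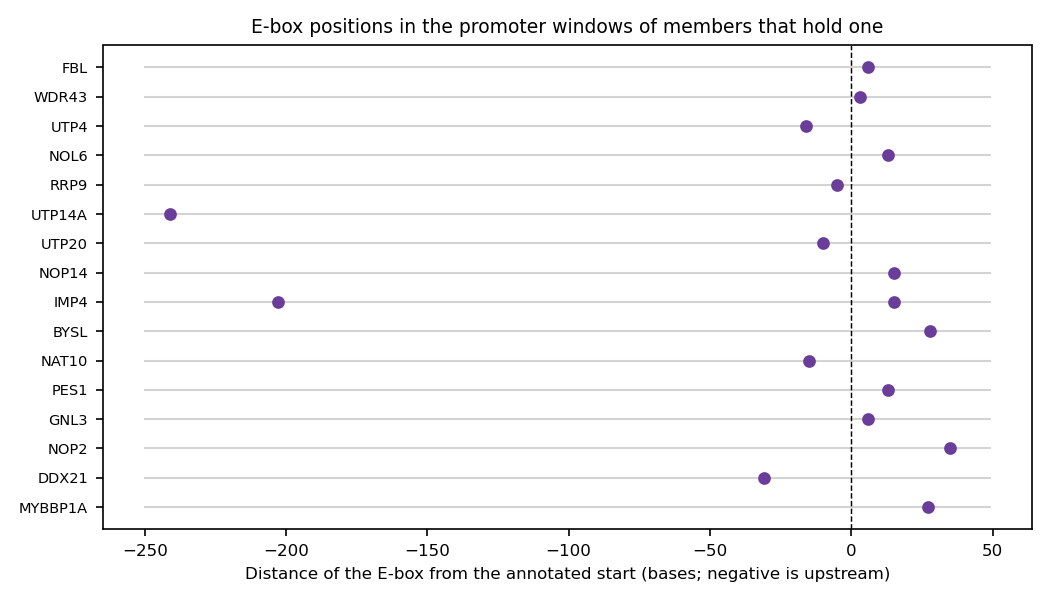
E-boxes (CACGTG) in the promoter windows of the 16 members that hold 1; the x axis is the distance in bases of the first letter from the annotated start, points are sites and grey lines the window searched. All members shown except UTP14A have a site within 35 bases of the start, and IMP4 has a further site upstream.

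MYC was far lower in MIR210HG-KO than in the other genotypes at both oxygen levels. In normoxia the WT libraries stood at 315, 334, 306 and 302 CPM, those of MIR210-KO at 379, 398, 427 and 412, and those of MIR210HG-KO at 136, 128, 110.3 and 129. The 3 groups did not overlap: every MIR210-KO library lay above WT and every MIR210HG-KO library below. In hypoxia WT stood at 306, 253, 294 and 269.6 CPM, MIR210-KO at 271, 242, 249 and 262 and MIR210HG-KO at 73.3, 69.2, 71.3 and 75.8. Here WT and MIR210-KO overlapped, and MIR210HG-KO again lay below both.

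By edgeR's quasi-likelihood test, with p values adjusted over all 19952 genes, MYC in MIR210HG-KO was at 0.40 times the WT level in normoxia (log2 fold change -1.32 ± 0.063, adjusted p = 3.87e-17) and at 0.258 times in hypoxia (-1.95 ± 0.065, adjusted p = 1.36e-21). All log2 fold changes are given ± their standard error. Against MIR210-KO it was at 0.311 times in normoxia (-1.69 ± 0.064) and 0.283 times in hypoxia (-1.82 ± 0.065). MIR210-KO had more MYC than WT in normoxia (0.36 ± 0.062, adjusted p = 1.25e-05) and was not called in hypoxia (-0.13 ± 0.062, adjusted p = 0.0703). That last value was called without hypoxia WT 2 (-0.18, adjusted p = 0.0139), without hypoxia MIR210-KO 1 (-0.17, adjusted p = 0.0312) and with a covariate for long and short genes (-0.14, adjusted p = 0.0172). The 36 tested genes within 5 Mb of MYC on chromosome 8 are given beside this fall in MIR210HG-KO: their median was 0.05 in normoxia, with 5 called lower and 7 higher, and 0.03 in hypoxia, with 13 lower and 7 higher.

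MYC fell with lowered oxygen in both knockouts, with a log2 fold change of -0.66 ± 0.062 in MIR210-KO (adjusted p = 1.27e-10) and -0.80 ± 0.064 in MIR210HG-KO (adjusted p = 5.85e-12), with no overlap between libraries. In WT the change was small, at -0.17 ± 0.062, adjusted p = 0.0215, and the libraries overlapped. This WT call was lost with DESeq2 (-0.14, adjusted p = 0.0606), with RLE factors (-0.14, adjusted p = 0.0626), with upper quartile factors (-0.07, adjusted p = 0.296), with the mean CPM filter (adjusted p = 0.0836) and in the fit to only the groups compared (adjusted p = 0.093). With the covariate for long and short genes the direction turned (0.060, adjusted p = 0.648). It was also lost without normoxia WT 1, normoxia WT 2, hypoxia WT 2 or hypoxia WT 4 (-0.16 to -0.12, adjusted p 0.0581 to 0.114), and it stood at -0.27 ± 0.049, adjusted p = 5.97e-06 without the 4 libraries set apart. The fall was larger than in WT in MIR210-KO (difference -0.49 ± 0.087, adjusted p = 6.70e-05) and in MIR210HG-KO (-0.63 ± 0.089, adjusted p = 3.64e-06). Between the knockouts the difference of -0.14 ± 0.089 was not called (adjusted p = 0.469).

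**Figure D2:**
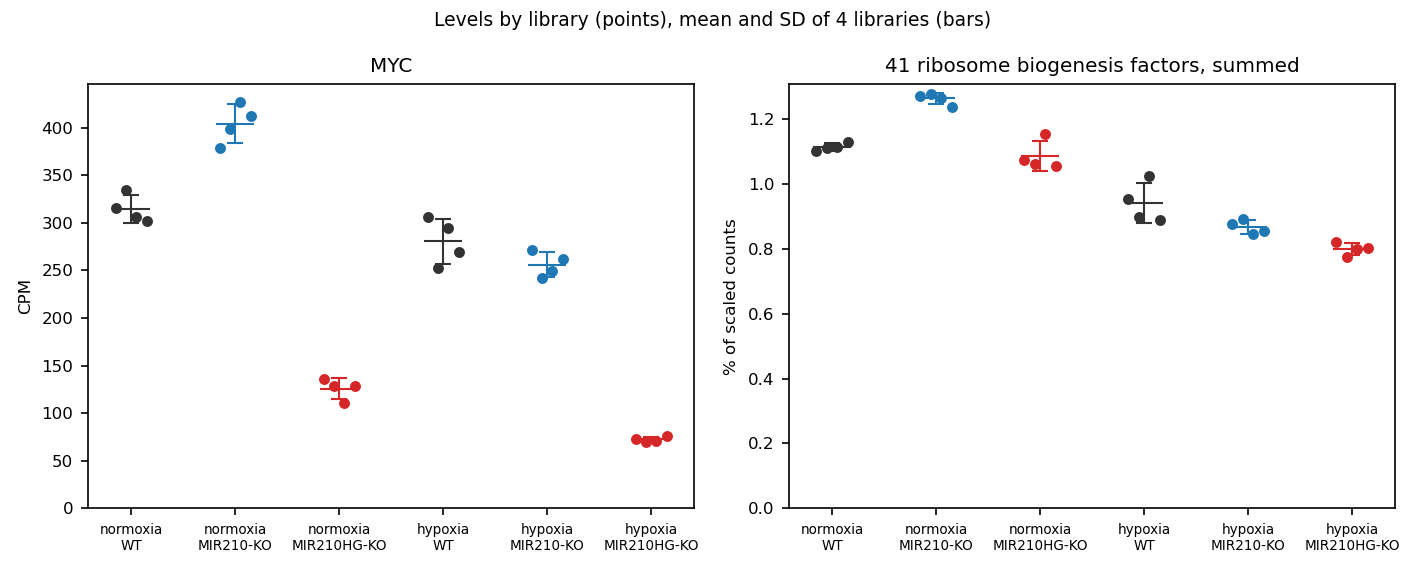
MYC in CPM (left) and the summed level of the other 41 members as a percentage of scaled counts (right), by group; points are libraries and bars the mean with the SD of 4 libraries, on axes that start at 0. MYC in MIR210HG-KO lies below every library of the other genotypes, whereas the summed factors of normoxia MIR210HG-KO lie near WT: library 3, set apart above, is at 1.16% and the other 3 lie below the WT range of 1.1% to 1.13%.

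The other 41 members, summed, varied over a narrower range than MYC, but a sum of 41 genes and 1 gene are unlike measures. NPM1 and NCL, at means of 2151 and 1632 CPM over 24 libraries, weigh most in the sum. The 41 together took 1.1% to 1.13% of scaled counts in normoxia WT, 1.05% to 1.16% in normoxia MIR210HG-KO and 1.24% to 1.28% in normoxia MIR210-KO. In hypoxia they took 0.889% to 1.03% in WT, 0.847% to 0.892% in MIR210-KO and 0.774% to 0.822% in MIR210HG-KO. All 12 hypoxia libraries thus lay below all 12 normoxia libraries. In normoxia MIR210HG-KO the highest sum was that of library 3, which was set apart. Libraries 1, 2 and 4, at 1.07%, 1.06% and 1.05%, lay below every WT library. Library 3 also had the highest NCL (2105 CPM) and NPM1 (2429 CPM) of that group. By the median over the 41 of log2 CPM minus the gene's mean, library 3 was at 0.22. Libraries 1, 2 and 4 were at 0.28, 0.28 and 0.21 by that median, and normoxia WT at 0.29 to 0.31. Within hypoxia WT, the libraries set apart, 1 and 3, had the higher sums. By mean CPM, normoxia MIR210-KO was the highest of the 6 groups for 30 of the 42 members, normoxia MIR210HG-KO for 7, hypoxia WT for 3 and normoxia WT for 2. The lowest group was hypoxia MIR210HG-KO for 22 members, hypoxia MIR210-KO for 15 and hypoxia WT for 5.

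**Figure D3:**
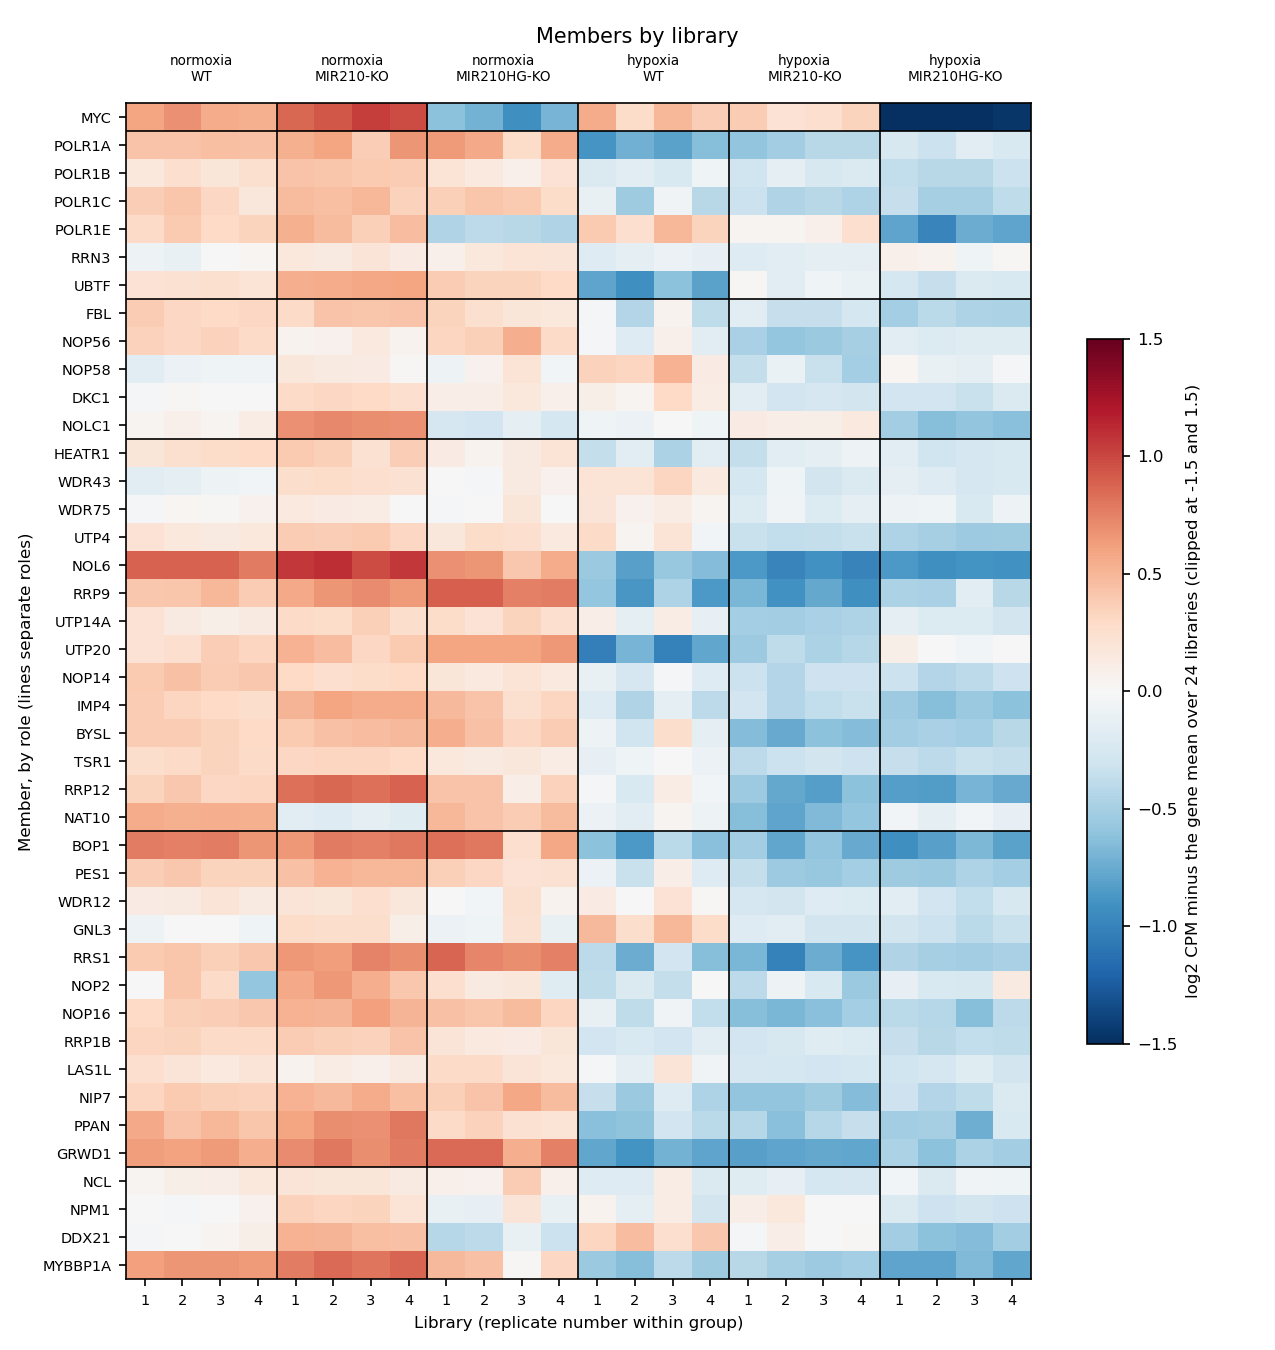
Level of each member in each library as log2 CPM minus the gene's mean over 24 libraries, in colour from blue (lower) to red (higher); columns are libraries in 6 groups of 4 and rows are members grouped by role. MYC is lowest in hypoxia MIR210HG-KO, and most other rows change from red to blue between the 12 normoxia and the 12 hypoxia columns.

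Most members were lower in hypoxia than in normoxia, in WT as in both knockouts. In WT, 30 of 42 members fell, 5 rose and 7 were not called, where 29.6% of all genes tested were called higher and 30.7% lower. In MIR210-KO all 42 fell and 0 rose, against a background of 29.5% lower and 29.3% higher, and in MIR210HG-KO 40 fell and 0 rose, against 28.3% and 25.7%. Of the 42, NOP58 (-0.10 ± 0.075) and NOP2 (-0.22 ± 0.19) were not called in MIR210HG-KO. The members' median log2 fold change was -0.39 in WT, -0.65 in MIR210-KO and -0.55 in MIR210HG-KO, beside 0.00, 0.04 and 0.03 over all genes tested. Without the 4 libraries set apart, 33 fell and 4 rose in WT, 42 and 0 in MIR210-KO, and 40 and 0 in MIR210HG-KO. With the covariate for long and short genes, 19 fell and 6 rose in WT, 33 and 0 in MIR210-KO, and 26 and 0 in MIR210HG-KO. Hypoxia and normoxia were deposited as separate tables, so oxygen level and table cannot be told apart.

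The largest falls were in small and large subunit factors. NOL6, part of the small subunit processome, went from 119.6, 119.9, 119.8 and 111 CPM in normoxia WT to 44, 36.7, 43.8 and 41.2 in hypoxia WT. In MIR210-KO it went from 135, 139.8, 128 and 136 to 35.6, 32.5, 34.5 and 32.3 CPM, and in MIR210HG-KO from 104, 102, 85.4 and 95.2 to 35.5, 34.3, 34.9 and 34.4. No hypoxia library reached the normoxia level of its genotype, and the fitted changes were -1.51 ± 0.062, -2.0 ± 0.063 and -1.48 ± 0.063 (highest adjusted p = 1.36e-18). GRWD1, a chaperone of large subunit assembly, changed by -1.4 ± 0.059 in WT, -1.53 ± 0.059 in MIR210-KO and -1.27 ± 0.059 in MIR210HG-KO. BOP1, of the PeBoW complex that matures the large subunit RNA, changed by -1.36 ± 0.091, -1.4 ± 0.091 and -1.43 ± 0.091 in the same order. Of its partners in that complex, PES1 changed by -0.48 ± 0.062, -0.99 ± 0.063 and -0.80 ± 0.063, and WDR12 by -0.06 ± 0.058 (not called), -0.43 ± 0.059 and -0.33 ± 0.059. RRP12, needed to mature small subunit precursors, fell by 0.39, 1.54 and 1.11 on the log2 scale in WT, MIR210-KO and MIR210HG-KO.

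Of the 6 members of the RNA polymerase I machinery, 4 fell in WT, and all 6 fell in each knockout. The largest subunit, POLR1A, fell by 1.2 in WT, and UBTF, which bends ribosomal DNA for transcription, by 1.0. POLR1E (0.04 ± 0.060) and RRN3 (-0.10 ± 0.048), the factor that brings the polymerase to its promoter, were not called in WT. POLR1B (-0.37 ± 0.049) and POLR1C (-0.58 ± 0.078), a subunit shared with RNA polymerase III, fell in WT as well. Of the 5 snoRNP members, 3 fell and 2 rose in WT. FBL fell by 0.50 and its partner NOP56 by 0.39, whereas their other partner NOP58 and the pseudouridine synthase DKC1 rose. Among 14 small subunit factors 11 fell and 1 rose in WT, and all 14 fell in each knockout. Among 12 large subunit factors 9 fell and 1 rose in WT, 12 fell in MIR210-KO and 11 in MIR210HG-KO. MYBBP1A, a repressor of RNA polymerase I transcription, fell in all 3 genotypes (-1.17 ± 0.068, -1.32 ± 0.068 and -1.08 ± 0.068), as did NCL (-0.22 ± 0.066, -0.38 ± 0.066 and -0.24 ± 0.066). NPM1 was not called in WT (-0.06 ± 0.069) and fell in MIR210-KO (-0.24 ± 0.069) and MIR210HG-KO (-0.24 ± 0.069).

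The remaining small subunit factors are given as log2 fold changes in WT, MIR210-KO and MIR210HG-KO, in that order. Of the early group that binds the first stretch of the precursor, HEATR1 changed by -0.53, -0.52 and -0.37. WDR75 and UTP4, of the same group, were not called in WT (0.08 ± 0.056 and -0.04 ± 0.057) and fell in MIR210-KO (-0.24 ± 0.056 and -0.72 ± 0.057) and MIR210HG-KO (-0.16 ± 0.056 and -0.72 ± 0.057). Proteins linked to the early cleavage particle changed as follows: RRP9 by -1.11, -1.46 and -1.21, and IMP4 by -0.60, -0.91 and -0.96. Further factors of the small subunit changed too: UTP14A by -0.15, -0.79 and -0.47, NOP14 by -0.55, -0.62 and -0.53, BYSL by -0.39, -1.11 and -0.91, TSR1 by -0.36, -0.64 and -0.51, and NAT10 by -0.61, -0.50 and -0.53. All values of HEATR1, RRP9, IMP4, UTP14A, NOP14, BYSL, TSR1 and NAT10 were called. Among large subunit factors, RRS1, a helper in the assembly of the early large subunit, stood at 48.9, 49.9, 47.8 and 49.2 CPM in normoxia WT and 28.5, 22.3, 30.5 and 24 in hypoxia WT. Its log2 fold changes were -0.90 ± 0.075, -1.51 ± 0.076 and -1.25 ± 0.075. The others changed as follows: NOP16 by -0.58, -1.16 and -0.88, RRP1B by -0.55, -0.61 and -0.54, LAS1L by -0.20, -0.36 and -0.48, NIP7 by -0.74, -1.1 and -0.80, and PPAN by -0.95, -1.15 and -0.76, all called. NOP2 was not called in WT (-0.30 ± 0.19) or MIR210HG-KO and fell in MIR210-KO (-0.84 ± 0.18). NOLC1 fell in all 3 genotypes (-0.12 ± 0.044, -0.58 ± 0.044 and -0.36 ± 0.044).

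**Figure D4:**
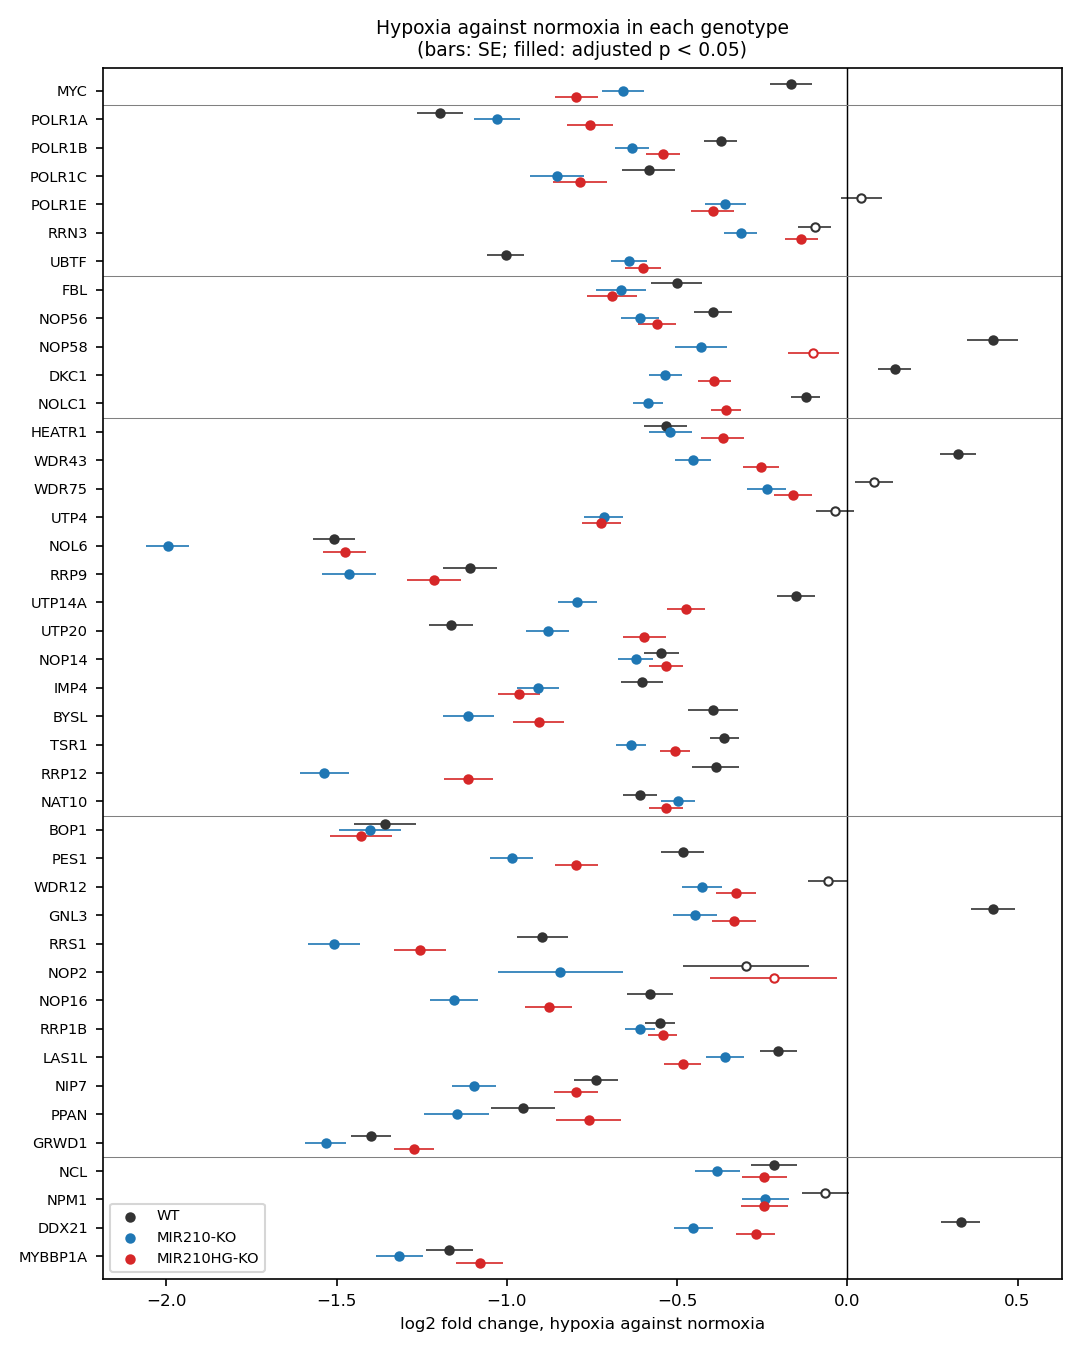
Log2 fold change of each member, hypoxia against normoxia, in WT (black), MIR210-KO (blue) and MIR210HG-KO (red); bars are standard errors and filled points passed an adjusted p of 0.05. All blue points lie below 0, and the filled black points above 0 are NOP58, DKC1, WDR43, GNL3 and DDX21.

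The 5 members that rose in hypoxia WT did not rise in either knockout. GNL3 (nucleostemin), a nucleolar GTPase, stood at 316, 335, 332 and 319 CPM in normoxia WT and 469.9, 403, 473 and 405 in hypoxia WT, with every hypoxia library higher. In MIR210-KO it went from 405, 400.2, 401 and 356 to 292, 300.2, 276 and 277 CPM and in MIR210HG-KO from 314, 320.0, 391 and 310.4 to 277, 267, 253 and 264, so every hypoxia library of the knockouts was lower. The fitted response was 0.43 ± 0.065 in WT, -0.45 ± 0.065 in MIR210-KO and -0.33 ± 0.065 in MIR210HG-KO. The differences from WT were -0.88 ± 0.092, adjusted p = 1.35e-08 and -0.76 ± 0.092, adjusted p = 3.62e-07. The RNA helicase DDX21 was at 0.33 ± 0.058 in WT, -0.45 ± 0.058 in MIR210-KO and -0.27 ± 0.058 in MIR210HG-KO. NOP58 stood at 0.43 ± 0.075 in WT and -0.43 ± 0.075 in MIR210-KO, WDR43 at 0.33 ± 0.053 and -0.45 ± 0.053, and DKC1 at 0.14 ± 0.049 and -0.53 ± 0.049. For each of the 5, both differences from WT were called, with a highest adjusted p of 0.000446. The 5 were picked by their rise in WT, and that WT response enters both differences, so the picking favours negative differences.

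Without the 4 libraries set apart, the WT rise was 0.31 ± 0.047 for GNL3, 0.40 ± 0.044 for DDX21, 0.32 ± 0.064 for NOP58 and 0.28 ± 0.049 for WDR43, all still called, and 0.08 ± 0.041, adjusted p = 0.103 for DKC1, no longer called. The differences from WT stayed called for all 5, with a highest adjusted p of 0.00157. With a covariate for the balance of long and short genes the DDX21 rise was 0.17, adjusted p = 0.123.

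The oxygen response was more negative in MIR210-KO than in WT for 25 of 42 members, and less negative for 2, where 14% and 12.5% of all genes tested were called in these directions. For MIR210HG-KO against WT the counts were 19 and 3, against 12.2% and 10.2%. Without the 4 libraries set apart, 23 were more negative and 1 less in MIR210-KO, and 16 and 3 in MIR210HG-KO. RRP12 had the most negative difference in MIR210-KO (-1.15 ± 0.099, adjusted p = 2.71e-10), and in MIR210HG-KO it came after GNL3, at -0.73 ± 0.10. NOP58 differed by -0.86 ± 0.11 in MIR210-KO, and UTP4, of the early small subunit processome, by -0.69 ± 0.080 in MIR210HG-KO. In the other direction stood UTP20 and UBTF in both knockouts and POLR1A in MIR210HG-KO. UTP20, a large scaffold of the small subunit processome, fell by 1.16 in WT, 0.88 in MIR210-KO and 0.60 in MIR210HG-KO, which gave differences of 0.28 ± 0.090, adjusted p = 0.0172 and 0.57 ± 0.089, adjusted p = 1.94e-05. The first of these was lost without the 4 libraries (0.18, adjusted p = 0.0676), without normoxia MIR210-KO 3 (0.24, adjusted p = 0.0536) and without hypoxia WT 1 (0.23, adjusted p = 0.0517). UBTF differed by 0.36 ± 0.075 and 0.40 ± 0.075, and POLR1A by 0.44 ± 0.094 in MIR210HG-KO.

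Between the knockouts, 4 members responded less negatively in MIR210HG-KO than in MIR210-KO and 0 more, where 2.03% and 1.51% of all genes were called. These were NOL6 (0.52 ± 0.087), RRP12 (0.42 ± 0.10), UTP14A (0.32 ± 0.079, adjusted p = 0.018) and NOLC1 (0.23 ± 0.062), the last named after its value was seen. UTP14A was lost without normoxia MIR210HG-KO 2 (0.31, adjusted p = 0.052) and without hypoxia MIR210HG-KO 1 (0.31, adjusted p = 0.0529). The count moved to 2 without either of these libraries, to 9 without normoxia MIR210HG-KO 3, to 17 without the 4 libraries set apart, and to 8 with DESeq2, with no member in the other direction in any of them.

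In normoxia, MIR210-KO had modestly more of many members than WT. The counts were 22 of 42 higher and 3 lower, where 22.6% of all genes tested were called higher and 21.6% lower. The median was 0.17, beside 0.01 over all genes. By role, 3 of 6 polymerase I members, 3 of 5 snoRNP members, 7 of 14 small subunit, 5 of 12 large subunit and 3 of 4 multifunctional members were higher. NOLC1, a scaffold for snoRNPs, rose most: WT libraries stood at 436, 444, 435 and 457 CPM and MIR210-KO libraries at 679.5, 695, 688 and 682, without overlap (0.63 ± 0.044, adjusted p = 1.81e-13). Next were RRP12 (0.51 ± 0.070) and NOP2 (0.47 ± 0.18, adjusted p = 0.0344), of which NOP2 has few counts. The NOP2 call was lost without normoxia WT 1 or 4 or without MIR210-KO 1, 2 or 3 (0.32 to 0.48, adjusted p 0.0514 to 0.164). The genes within 5 Mb of NOLC1 on chromosome 10 had a median of 0.39, with 75 of 115 called higher. RRP12 lies on the same chromosome, also within 5 Mb of NOLC1. The part of that region in the values of NOLC1 and RRP12 was not tested. Lower were the RNA acetyltransferase NAT10, the snoRNP protein NOP56 (-0.24 ± 0.056) and NOP14 (-0.13 ± 0.050, adjusted p = 0.0409), of which NOP14 lost its call without any 1 of the 8 libraries (-0.13 to -0.11, adjusted p 0.0871 to 0.153). The NOP14 call was also lost with RLE factors (adjusted p = 0.062), upper quartile factors (adjusted p = 0.0571) and no low-count filter (adjusted p = 0.167).

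NAT10 stood at 219.9, 216, 217 and 216 CPM in normoxia WT and 132, 131, 135 and 132 in MIR210-KO, a change of -0.71 ± 0.050 that recurred in hypoxia (-0.60 ± 0.050). It lies on chromosome 11, where the median over the tested genes that are not members was -0.50 in normoxia and -0.48 in hypoxia. Within 5 Mb of it, the median was -0.23 and 20 of 44 genes were called lower in normoxia. The chromosome's part in this value was not tested.

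In hypoxia more members were lower in MIR210-KO: 22 of 42 stood below WT and 4 above, where 28.2% of all genes tested were called higher and 27.7% lower. The median was -0.20, beside 0.02 over all genes. RRP12 stood at 84.8, 73.6, 93.7 and 83.8 CPM in WT and 59.3, 50.9, 48.6 and 56.5 in MIR210-KO, without overlap (-0.64 ± 0.071, adjusted p = 2.96e-09), although in normoxia it was higher in MIR210-KO. NOP58 (-0.65 ± 0.075) and BYSL (-0.62 ± 0.074), a small subunit factor, were the other large falls, and GNL3 (-0.61 ± 0.065) and NAT10 followed. Higher were UBTF (0.71 ± 0.053), UTP20 (0.42 ± 0.064), POLR1A (0.27 ± 0.067) and NOLC1 (0.17 ± 0.044). Without the 4 libraries the counts were 21 lower and 5 higher, and RRP12 stood at -0.60 ± 0.058.

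In MIR210HG-KO, where MYC was lowest, few factors moved far in normoxia. Below WT stood 9 of 42 and above it 6, where 15.6% of all genes tested were called higher and 19.6% lower. The median was 0.03, beside -0.01 over all genes. The share called lower, like the share called higher, was thus near that of all genes. After MYC, the RNA polymerase I subunit POLR1E was lowest, at 41.6, 43, 42.4 and 41.4 CPM against 69.3, 74.5, 69.6 and 71.2 in WT, without overlap (-0.76 ± 0.062, adjusted p = 1.42e-11). DDX21 followed (-0.34 ± 0.058), at 443, 452, 548 and 476 CPM against 586, 596, 611 and 629, also without overlap. Also lower were MYBBP1A (-0.32 ± 0.067), NOLC1 (-0.30 ± 0.044), NOL6 (-0.28 ± 0.060), NOP14 (-0.24 ± 0.050), TSR1 (-0.15 ± 0.044) and RRP1B (-0.14 ± 0.044). Higher were RRP9, a protein of the snoRNP that guides early cleavage (0.41 ± 0.077), RRS1 (0.37 ± 0.073), UTP20 (0.31 ± 0.063), RRN3 (0.20 ± 0.048), WDR43 (0.15 ± 0.053) and GRWD1 (0.15 ± 0.057). With DESeq2 or RLE factors the split was 9 lower and 9 higher, and without the 4 libraries set apart 12 lower and 9 higher, with a median of -0.0033. POLR1E lies on chromosome 9, where 82 of 121 tested genes within 5 Mb were called lower and 0 higher, with a median of -0.48. NOL6 lies on the same chromosome, also within 5 Mb of POLR1E. The part of that region in the values of POLR1E and NOL6 was not tested.

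In hypoxia 26 of 42 members stood below WT in MIR210HG-KO and 6 above, where 24.4% of all genes tested were called higher and 30.2% lower. The median was -0.22, beside -0.03 over all genes. POLR1E (-1.19 ± 0.062) and DDX21 (-0.94 ± 0.058) followed MYC, and RRP12 (-0.74 ± 0.071), GNL3 (-0.72 ± 0.065) and UTP4 (-0.64 ± 0.057) came next. DDX21 stood at 415, 386, 378 and 414 CPM against 739.6, 818, 706 and 786 in WT, without overlap. Higher were UTP20, at 92.5, 86.5, 84.5 and 86.9 CPM against 42.6, 53.6, 43.2 and 50.6, again without overlap (0.88 ± 0.064, adjusted p = 3.67e-13, and 0.75 ± 0.056 without the 4 libraries set apart), UBTF (0.52 ± 0.053), POLR1A (0.52 ± 0.067), RRP9 (0.30 ± 0.079), GRWD1 (0.28 ± 0.059) and RRN3 (0.16 ± 0.048). Near POLR1E, 76 of 121 genes were lower, with a median of -0.53. Without the 4 libraries set apart 22 members were lower and 9 higher. The knockouts were both compared with the same WT libraries, so a deviation of those libraries enters both comparisons.

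**Figure D5:**
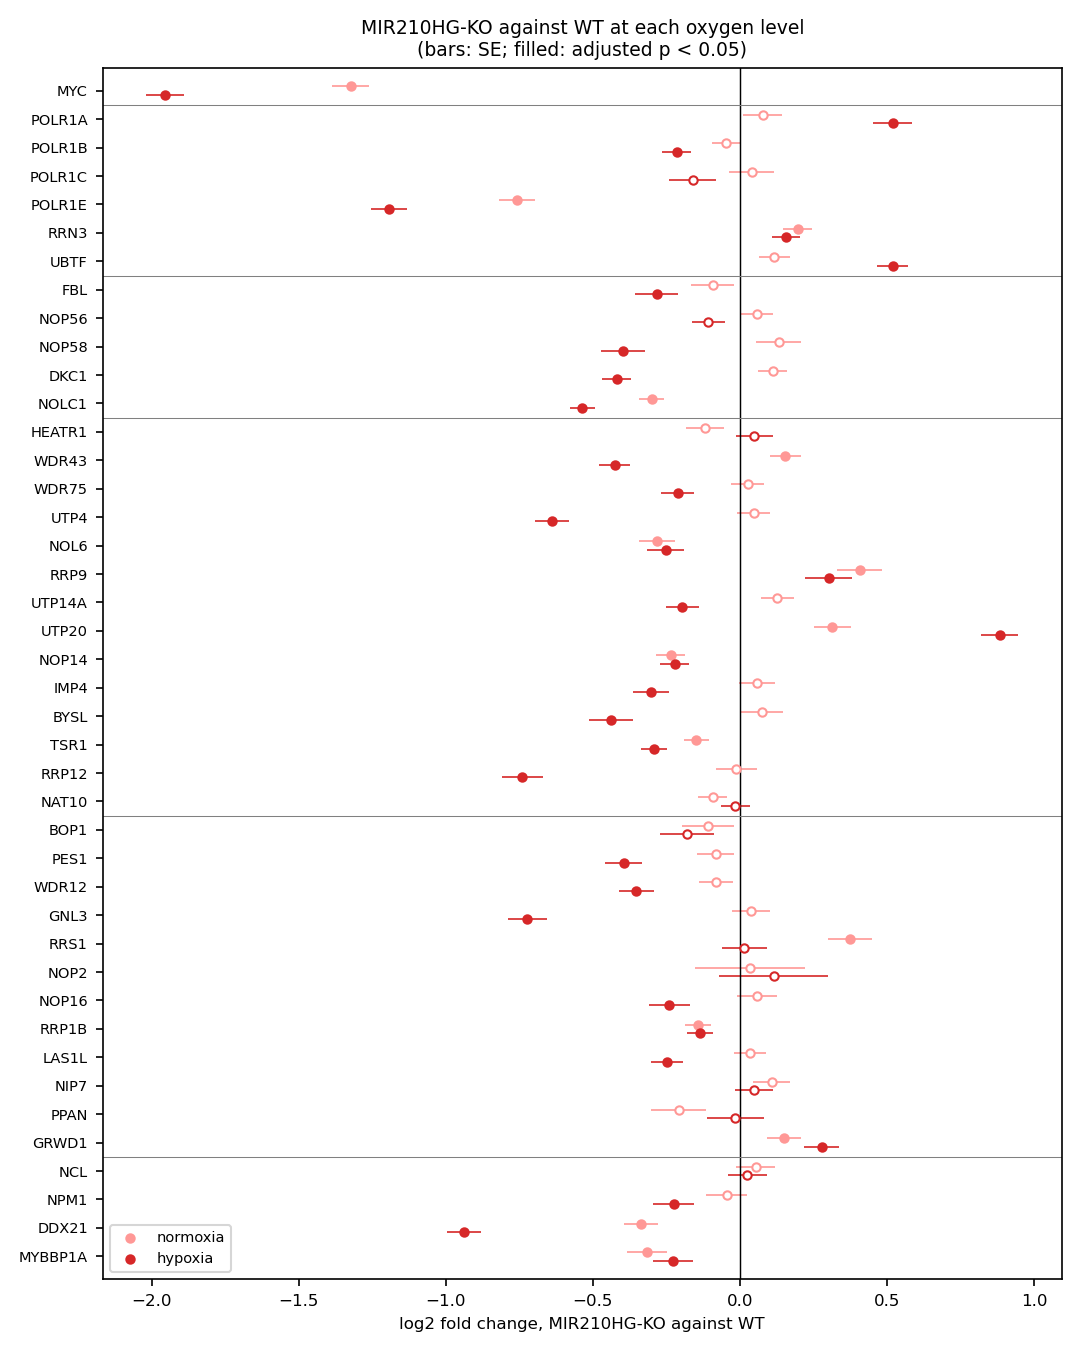
Log2 fold change of each member, MIR210HG-KO against WT, in normoxia (light red) and hypoxia (dark red); bars are standard errors and filled points passed an adjusted p of 0.05. MYC lies furthest below 0 at both oxygen levels (-1.32 and -1.95), most factors in normoxia lie near 0, and UTP20, UBTF and POLR1A lie above 0 in hypoxia.

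Set against MIR210-KO directly, MIR210HG-KO had less of 21 members and more of 5 in normoxia, where 25.8% of all genes were called lower and 23.4% higher, with a median of -0.16 beside 0.00. With upper quartile factors the split was 24 lower and 2 higher, and without the 4 libraries set apart 26 and 5. After MYC the lowest were NOLC1 (-0.93 ± 0.044) and POLR1E (-0.89 ± 0.062), and the highest were NAT10 (0.62 ± 0.050), NOP56 (0.30 ± 0.056) and RRP9 (0.19 ± 0.076, adjusted p = 0.0395). The RRP9 call was lost without MIR210-KO 1, 2 or 4 or MIR210HG-KO 1 or 2 (0.17 to 0.20, adjusted p 0.0661 to 0.113). In hypoxia 12 were lower and 12 higher, beside 29% and 26% of all genes, with a median of -0.02, and without the 4 libraries 14 and 14. POLR1E (-0.93 ± 0.062) and NOLC1 (-0.70 ± 0.044) were again lowest after MYC, and NAT10 (0.58 ± 0.050), UTP20 (0.47 ± 0.063) and RRP9 (0.44 ± 0.080) highest. Around NOLC1, 85 of 115 genes within 5 Mb were lower in normoxia, with a median of -0.47, and the median over chromosome 11, which holds NAT10, was 0.50.

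In MIR210HG-KO against WT, members with an E-box in their windows went down and up, as did those without. In MIR210HG-KO against WT in normoxia, the 16 with CACGTG had a median of 0.04, with 4 lower and 3 higher, and the 18 without had 0.05, with 1 lower and 2 higher. In hypoxia the medians were -0.27, with 12 lower and 2 higher, and -0.13, with 8 lower and 4 higher. The 7 factors other than MYC with no window on hand could not be placed in either set. Their median was -0.11 in normoxia, with 3 lower and 1 higher, and -0.40 in hypoxia, with 5 lower and 0 higher. Over all genes tested, 19.6% were lower and 15.6% higher in normoxia, and 30.2% and 24.4% in hypoxia. For hypoxia against normoxia, the sets with and without CACGTG both held members called lower and higher in WT. Neither of these 2 sets held a member called higher in the knockouts. The medians were -0.49 and -0.38 in WT, -0.82 and -0.62 in MIR210-KO, and -0.64 and -0.52 in MIR210HG-KO. These medians are descriptions, and the difference between the groups of members was not tested. In hypoxia MIR210HG-KO against WT, the 2 higher members with CACGTG were UTP20 and RRP9, and DDX21, GNL3, UTP4 and WDR43 were among the 12 lower.

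Other genes of ribosome production, taken from lists drawn up by function, more often fell than rose in hypoxia. Over all genes tested, 30.7% fell and 29.6% rose in WT, 29.5% and 29.3% in MIR210-KO, and 28.3% and 25.7% in MIR210HG-KO. In WT, 27 of 45 further small subunit factors fell and 9 rose, led by DHX37 (-1.59 ± 0.069) and PWP2 (-1.31 ± 0.095). In MIR210-KO 41 fell and 1 rose, and in MIR210HG-KO 38 fell and 2 rose. Of 51 further large subunit factors, 25 fell and 16 rose in WT, with GNL3L (-1.15 ± 0.11) and DDX51 (-1.03 ± 0.067) changing most, and the share that rose was near that of all genes. In MIR210-KO 43 fell and 1 rose, and in MIR210HG-KO 40 fell and 1 rose. The medians of the large subunit list were -0.12, -0.47 and -0.38 in WT, MIR210-KO and MIR210HG-KO.

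The smaller lists are read against the same shares of all genes (30.7% fell and 29.6% rose in WT). Among 15 other RNA polymerase I subunits and cofactors, 9 fell and 5 rose in WT, 10 and 1 in MIR210-KO, and 9 and 0 in MIR210HG-KO. POLR2L (-2.19 ± 0.12) and POLR2E (-1.31 ± 0.082), both shared between the nuclear RNA polymerases, changed most in WT. Of 22 genes of RNA polymerase III, which makes transfer RNA, 13 fell and 5 rose in WT, against 19 and 2 in MIR210-KO and 17 and 2 in MIR210HG-KO. Of 11 H/ACA proteins and snoRNP chaperones 6 fell and 2 rose in WT, led by RUVBL2 (-0.93 ± 0.080) and NHP2 (-0.90 ± 0.077), and 10 fell in MIR210-KO and 8 in MIR210HG-KO with 0 higher in either. Of 14 genes of the RNA exosome, which trims ribosomal RNA ends, 8 fell and 4 rose in WT, led by EXOSC4 (-0.93 ± 0.12) and EXOSC5 (-0.71 ± 0.092). In MIR210-KO 10 fell and 0 rose, and in MIR210HG-KO 9 fell and 1 rose.

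The MYC network moved in mixed directions with oxygen. Of 16 partners, 5 rose and 3 fell in WT, 6 and 8 in MIR210-KO, and 5 and 6 in MIR210HG-KO. Over all genes 29.6% rose and 30.7% fell in WT, so the partners that rose there were near that share. In WT the largest changes were MXI1 (1.61 ± 0.060) and MXD1 (1.33 ± 0.073), both of which encode proteins that pair with MAX in place of MYC. MXI1 also rose in MIR210-KO (0.94 ± 0.059) and MIR210HG-KO (0.99 ± 0.060). The median of the list in MIR210-KO was -0.13, and 0.01 with upper quartile factors. Of 27 genes known as MYC targets outside the ribosome, 15 fell and 6 rose in WT, led by NME1 (-1.66 ± 0.093) and TERT (-1.53 ± 0.13), a nucleoside diphosphate kinase and the telomerase reverse transcriptase. In MIR210-KO 22 fell and 1 rose, and in MIR210HG-KO 21 fell and 2 rose.

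In MIR210HG-KO, partners and targets of MYC moved in both directions. Over all genes 19.6% were lower and 15.6% higher in normoxia, and 30.2% and 24.4% in hypoxia. Against WT in normoxia, 4 of 16 partners were lower and 4 higher, with MYCL (-0.73 ± 0.091) and MNT (-0.47 ± 0.077) changing most, and 8 of 27 targets were lower and 3 higher, led by CCND2 (-0.91 ± 0.066) and EIF2S1 (0.58 ± 0.059). CCND2, a cyclin of the G1 phase, stood at 42.7 ± 3.26 CPM against 80.2 ± 1.33 CPM in WT (SD, n = 4). In hypoxia 9 of 16 partners were lower and 6 higher, led by MYCN (1.46 ± 0.31) and MXI1 (-0.93 ± 0.058). MYCN, a close relative of MYC, was nearly silent, at 1.06 ± 0.363 CPM in hypoxia MIR210HG-KO and 0.38 ± 0.0847 in hypoxia WT. It was highest in hypoxia MIR210-KO, at 2.16 ± 0.629 CPM. Of the 27 targets 14 were lower and 5 higher in hypoxia MIR210HG-KO, led by CCND2 (-1.26 ± 0.064) and SHMT2 (-0.85 ± 0.059), a mitochondrial enzyme of one-carbon metabolism. The targets' medians were -0.08 in normoxia and -0.16 in hypoxia, beside -0.01 and -0.03 over all genes tested.

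Between genotypes, the lists of processing factors moved as follows, beside the shares of all genes. In normoxia MIR210-KO, 17 of 45 small subunit factors were higher and 7 lower than WT, and 17 of 51 large subunit factors were higher and 9 lower, where 22.6% of all genes were higher and 21.6% lower. In hypoxia MIR210-KO, 24 of 45 were lower and 8 higher, and 32 of 51 lower and 5 higher, beside 27.7% and 28.2%. In normoxia MIR210HG-KO, 12 of 45 were higher and 6 lower, and 9 of 51 higher and 11 lower, beside 15.6% and 19.6%, which the large subunit list was near. In hypoxia MIR210HG-KO, 25 of 45 were lower and 4 higher, and 32 of 51 lower and 10 higher, beside 30.2% and 24.4%. The oxygen response was more negative than in WT for 30 of 45 small and 32 of 51 large subunit factors in MIR210-KO, with 0 and 1 less negative, beside 14% and 12.5% of all genes.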

How the data were processed

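The authors deposited raw read counts per gene in 2 tables, one per oxygen level, with gene lengths in bases (other than counts, the only values used). Per the submitters' processing notes the tools included edgeR 3.24.3, DESeq2 1.20.0, STAR 2.6.1d and featureCounts 1.5.0-p3, with the GRCh38 build; roles, strand setting and annotation release are not given in the sources used here. The 42 members had the same coordinates in GENCODE 29. Tests ran in edgeR 4.0.16 (R 4.3.3) on the deposited counts: filterByExpr over 6 groups, TMM factors, 1 mean per group and the quasi-likelihood F test, two-sided, adjusted by Benjamini-Hochberg over all genes and called at 0.05, in 12 comparisons. Every sample column was used. Replicates differed beyond counting noise (chi-square per gene 2.48 or more). Alternatives were upper quartile or RLE factors, DESeq2 1.42.0, 2 low-count filters, fits to the compared groups, a replicate block, a length covariate and leaving out libraries. The fit was tested on simulated data. Members and lists were chosen with earlier results of these data known. By rule, MYC and the 3 called members with the largest rise and fall per comparison, and the 2 largest called changes of each list described, were named, beside the other members; the largest changes of the RNA polymerase III list are not reported here.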

Additional observations from a re-analysis of the deposited data

Results flagged for a closer look

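Of 252 sets of 4 libraries screened (42 members in 6 groups), 21 held a library far from the other 3, with a gap over 0.829 of the whole range; chance alone flags about 1 in 20. Values are CPM. Normoxia WT 1 had the highest FBL (458, others 432 to 436). Normoxia MIR210-KO 1 had the lowest FBL (429, others 469 to 475). Normoxia MIR210-KO 3 had the highest NOP16 (61, others 56.9 to 57.2) and NOP56 (399, others 376 to 379). Normoxia MIR210HG-KO 3 had the highest GNL3 (391, others 310.4 to 320.0), NCL (2105, others 1694 to 1707), NPM1 (2429, others 1957 to 1979) and WDR75 (113, others 98.1 to 99.9). Hypoxia MIR210HG-KO 3 had the highest MYBBP1A (137, others 126 to 127) and the lowest NOP16 (25.7, others 29.7 to 30.4) and WDR75 (84.5, others 94.2 to 95). Normoxia WT 4 had the lowest BOP1 (228, others 244 to 247) and NOL6 (111, others 119.6 to 119.9). Normoxia MIR210HG-KO 4 had the highest UTP20 (137, others 130.5 to 131). Hypoxia MIR210-KO 2 had the lowest NOP14 (109, others 118 to 119). Normoxia MIR210-KO 4 had the lowest GNL3 (356, others 400.2 to 405), NCL (1776, others 1843 to 1854), NPM1 (2458, others 2674 to 2708) and TSR1 (176, others 178 to 179). Hypoxia WT 3 had the highest NCL (1748, others 1400.4 to 1420.3). Hypoxia MIR210HG-KO 2 had the lowest NCL (1400.1, others 1552 to 1578).

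By the test of the difference itself (edgeR's interaction term), the response to oxygen differed between MIR210-KO and WT for RRP12 (-1.15), NOP58 (-0.86), UBTF (0.36), UTP20 (0.28), MYC (-0.49), GNL3 (-0.88), on the log2 scale. It differed between MIR210HG-KO and WT for RRP12 (-0.73), POLR1A (0.44), UBTF (0.40), UTP20 (0.57), MYC (-0.63), UTP4 (-0.69), GNL3 (-0.76), and between the knockouts for RRP12 (0.42), UTP14A (0.32), NOL6 (0.52). For GNL3 every hypoxia library lay above the normoxia libraries in WT and below them in both knockouts.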

How the results depend on the processing

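Of 228 counts of members called under an alternative, 220 stayed within 1.5 times the reported count and 8 did not, and the cause was not tested. In MIR210HG-KO, the 40 members called for oxygen became 26 with the covariate for long and short genes, which differs between oxygen levels in every library. The 4 members whose oxygen response differed between the knockouts became 7 with a filter at a mean CPM of 1, 13 with that covariate, 17 without the 4 libraries set apart and 8 with DESeq2. Leaving out each library in turn gave 18 to 24 (MIR210-KO against WT), 13 to 15 (MIR210HG-KO against WT) and 21 to 25 (between knockouts) in normoxia, 26 to 30, 31 to 35 and 21 to 24 in hypoxia, 32 to 35, 42 to 42 and 37 to 40 for oxygen in WT, MIR210-KO and MIR210HG-KO, and 25 to 29, 19 to 24 and 2 to 9 for the 3 differences of response. Of 1326 values of single named members, 1283 kept direction and call, 39 lost the call, 3 gained it and 1 turned: MYC in WT, hypoxia against normoxia, at 0.060 with the covariate (adjusted p = 0.648). Upper quartile factors moved the median of all genes from 0.00 to 0.10, 0.04 to 0.18 and 0.03 to 0.16 for oxygen in the same order. The replicate numbers gave no clear pairing of libraries. Deviations from the group mean correlated over 0.1 in 18 of 60 pairs with the same number (median 0.00232) and 48 of 180 with other numbers (median 0.0054). With a replicate block the counts were 25, 14, 25, 26, 32, 24, 35, 42, 40, 27, 22 and 4 in the order of the ranges above. Depth limits NOP2 most, with as few as 31 counts in a library.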
